A study of Drosophila melanogaster with 3 samples.

Results

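In salivary glands of Drosophila melanogaster larvae, 39 of 13829 protein-coding genes were taken as high in replicate 3. Each had a level there more than 3 times that in replicate 1 and in replicate 2. A gene was taken when its deposited FPKM (fragments scaled by the authors to exon length and to a number of fragments per library) was 15 or more in replicate 3, and when replicate 3 plus 1 was at least 3 times the larger of the other libraries plus 1. The new glue genes ng1, ng2 and ng3 were left out by name. The 39 genes are 0.282% of the protein-coding genes, and with ng1 and ng2, which also met both limits, the share was 0.296%. Among the 2284 genes with 15 FPKM or more in replicate 3, the share with ng1 and ng2 was 1.8%. The genes were chosen by the levels in all 3 libraries, so those levels are given as a description and were not tested.

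All 3 libraries belong to 1 control group of salivary glands from L3 larvae, the last larval stage, with poly(A) RNA from 50 pooled glands each. The sample titles name an Oregon stock, the genotype field reads yw, and no treatment or mutation is listed. The study's title concerns the H3K9 methyltransferases SetDB1 and Su(var)3-9, but no mutant glands were analysed here. The labels do not say whether the samples came from separate cultures, so the spread may be technical. In these bulk samples, fewer cells of a type and less RNA per cell cannot be told apart.

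The larval salivary gland is a secretory tissue with giant polytene chromosomes, which makes glue proteins until a pulse of the steroid hormone ecdysone starts metamorphosis. Many of its transcripts change in level around that pulse. Cytosolic glutathione transferases join glutathione to toxic or oxidised compounds, and the larval serum proteins are amino acid stores made by the fat body, a tissue attached to the glands.

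The same limits were met by 66 genes in replicate 2 (0.477%) and by 1 gene in replicate 1 (0.00723%). In the opposite direction, 112 genes (0.81%) had 15 FPKM or more in replicates 1 and 2 and stood at least 3 times lower in replicate 3. Fragments outside rRNA pseudogenes numbered 678717 in replicate 1, 874009 in replicate 2 and 1185543 in replicate 3, and rRNA pseudogenes took 55.0%, 41.4% and 24.6% of all fragments. The numbers of fragments to which the FPKM values were scaled, 499875, 727437 and 945562, were smaller than the recovered totals of 1509433, 1490262 and 1571526, and what they count was not given. Scaled to the recovered totals instead, replicate 3 would move up by 0.86 against replicate 1 and 0.30 against replicate 2 on the log2 scale, and 182 genes would meet the limits, among them all 39 members. The salivary gland identity list had summed levels of 1438, 1285 and 1521 FPKM, with 5 of its 12 genes highest and 3 lowest in replicate 3. Single genes differed more: CrebA had 81.4, 91.1 and 209 FPKM, while sage had 773, 726 and 670. Of the 12, 9 had at least 15 FPKM in replicate 3, and none met the limits. Over all protein-coding genes, 24.9% were highest and 18.5% lowest in replicate 3, the rest lying between or being tied, and of those with at least 15 FPKM in replicate 3, 56.2% were highest there. Of 15 ecdysone regulators, 11 were lowest in replicate 3, and their summed level was 523, 631 and 245 FPKM. All 6 genes of the salivary duct list were lowest in replicate 3 (79.0, 69.1 and 37.2 FPKM summed). The part of depth, rRNA share and hormone-linked genes in the levels below was not tested.

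**Figure D1:**
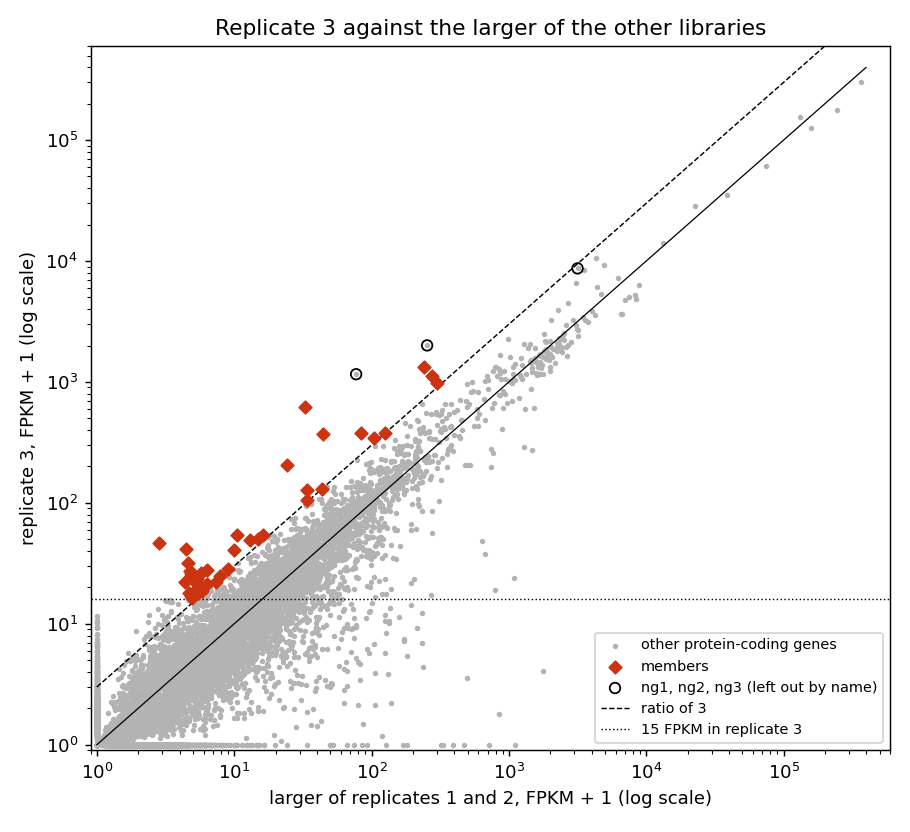
Each protein-coding gene is a point at its larger FPKM + 1 of replicates 1 and 2 (x axis, log scale) and its FPKM + 1 in replicate 3 (y axis, log scale). The 39 members lie above the dashed line of a ratio of 3 and the dotted line at 15 FPKM. ng1, ng2 and ng3 are circled, and ng3 lies just below the dashed line at a ratio of 2.75.

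The members' levels in replicate 3 ran from 15.2 to 1339 FPKM with a median of 30.5, against medians of 6.36 FPKM in replicate 1 and 4.72 in replicate 2. The median ratio used by the rule was 3.74, which is 1.90 on the log2 scale, and the range was 3.01 to 18.9. Protein-coding genes with at least 15 FPKM in replicate 3, of which there were 2284, had a median of 0.11 on the same log2 scale. Together the members held 0.0950%, 0.105% and 0.495% of the summed protein-coding FPKM in replicates 1, 2 and 3. The 9 highest members made up 83.7% of the members' sum in replicate 3. The members were not confined to replicate 3, and 12 had at least 15 FPKM in each of the other libraries as well. Replicates 1 and 2 differed by less than 1.5 times, after adding 1, for 23 of 39 members. Adding 1 draws low levels together, and the same share over all genes is not given here. Replicate 2 was higher in 20 members and replicate 1 in 19.

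**Figure D2:**
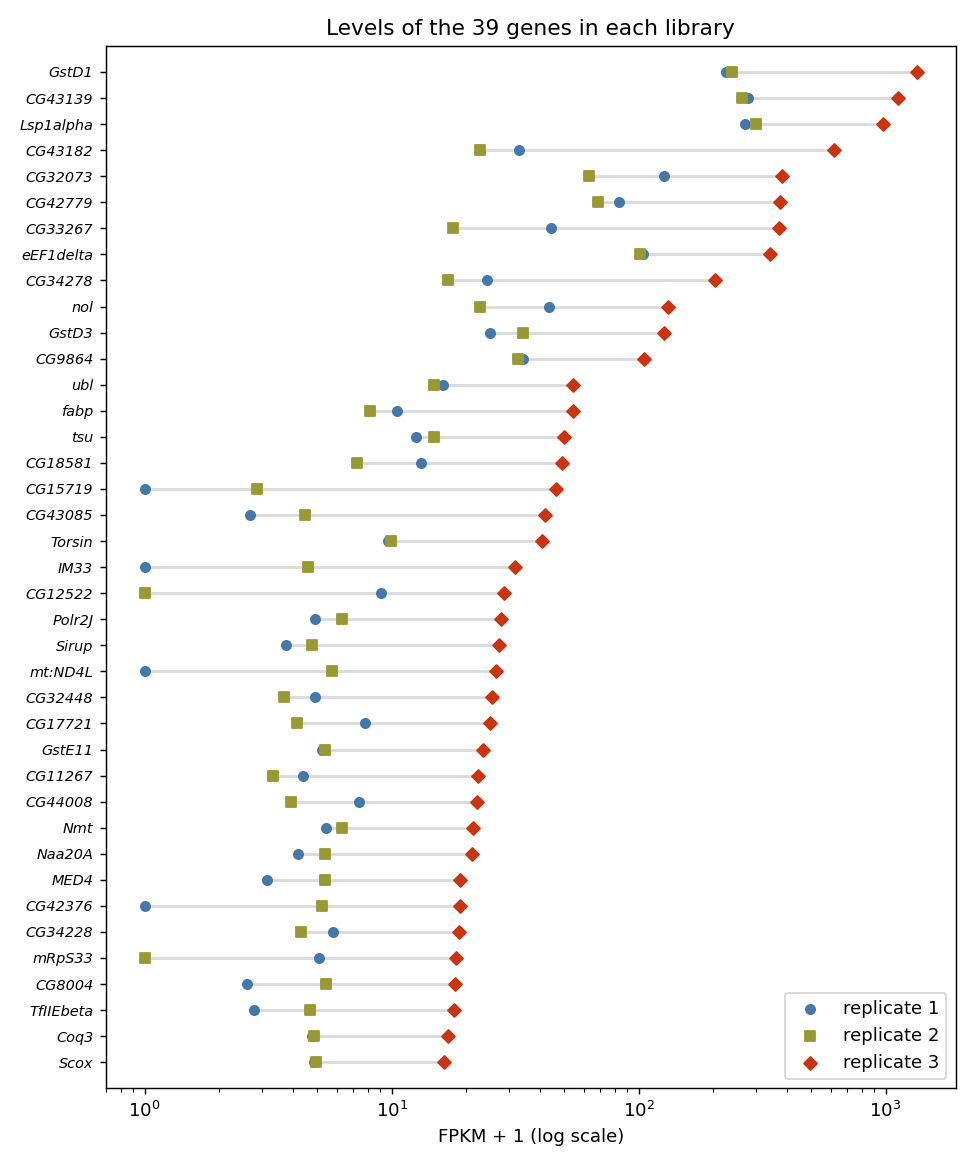
FPKM + 1 (x axis, log scale) of each of the 39 members in replicates 1, 2 and 3, ordered by the level in replicate 3. Replicate 3 lies to the right in every row, as the rule requires, and 6 members are at 0 in replicate 1 or replicate 2.

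Just inside the floor lay Scox at 15.2, Coq3 at 15.9 and TfIIEbeta at 17.0 FPKM in replicate 3, and just outside lay CG32576 at 14.9, mRpS35 at 14.8 and CG31142 at 14.8. Just inside the ratio lay CG32073 at 3.01, CG44008 at 3.03 and nol at 3.04. Just outside lay Tspo, LSm7 and Gnmt, each at 2.98.

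The glutathione transferases supplied 3 members, the most of any of the 35 gene lists. That is 8.57% of the listed genes, against 0.282% of all protein-coding genes. GstD1 (FBgn0001149, BDGP6.54 3R 12367817 to 12369268), the most abundant member and an enzyme known for resistance to insecticides and oxidative stress, had 225, 238 and 1339 FPKM in replicates 1, 2 and 3. Replicates 1 and 2 nearly coincided, and the FPKM of replicate 3, here and wherever an interval follows without adding 1, was 5.62 times the larger of them (95% exact interval 4.73 to 6.73, counting error only) from 95, 146 and 1067 fragments. GstD3 (FBgn0010039, 3R 12373068 to 12373813), a gene of the same cluster, had 24.1, 33.2 and 126 FPKM, a ratio of 3.80 (2.27 to 6.71). GstE11 (FBgn0034354, chromosome arm 2R), of the epsilon class, had 4.24, 4.37 and 22.4 FPKM from 2, 3 and 20 fragments, a ratio of 5.13 (1.52 to 27.0). The sequences of these genes are related, and how fragments were assigned among copies was not given in the sources used here.

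Most other genes of the family did not meet the limits. Of 35 glutathione transferase genes, 8 had at least 15 FPKM in replicate 3, 16 were highest in replicate 3, 3 were lowest there and 12 were listed at 0 in every library. The summed level of the family was 603, 657 and 1899 FPKM, and 349, 381 and 412 FPKM without the 3 members. Among the abundant genes that did not meet the limits, GstE12 had 94.4, 83.6 and 138 FPKM, GstT1 had 40.1, 45.5 and 56.2, and GstE1 had 33.7, 33.1 and 48.4. GstO3, an omega class gene, went the other way with 116, 125 and 36.0 FPKM.

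Within the GstD cluster on 3R, the genes next to GstD1 were also listed above 0 in replicate 3 and at 0 in the other libraries. GstD9, 252 bases from GstD1, had 9.42 FPKM in replicate 3, from 7 fragments. GstD10 had 4.83 FPKM from 4 fragments, and GstD2, which lies between GstD1 and GstD3, had 2.88 FPKM from 2 fragments. These 3 genes fell below the floor of 15 FPKM and rest on few fragments. The remaining 6 of the 11 GstD genes, GstD4 to GstD8 and GstD11, were listed at 0 in every library. The plot of the family shows GstD1 apart from the others in replicate 3 by level.

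**Figure D3:**
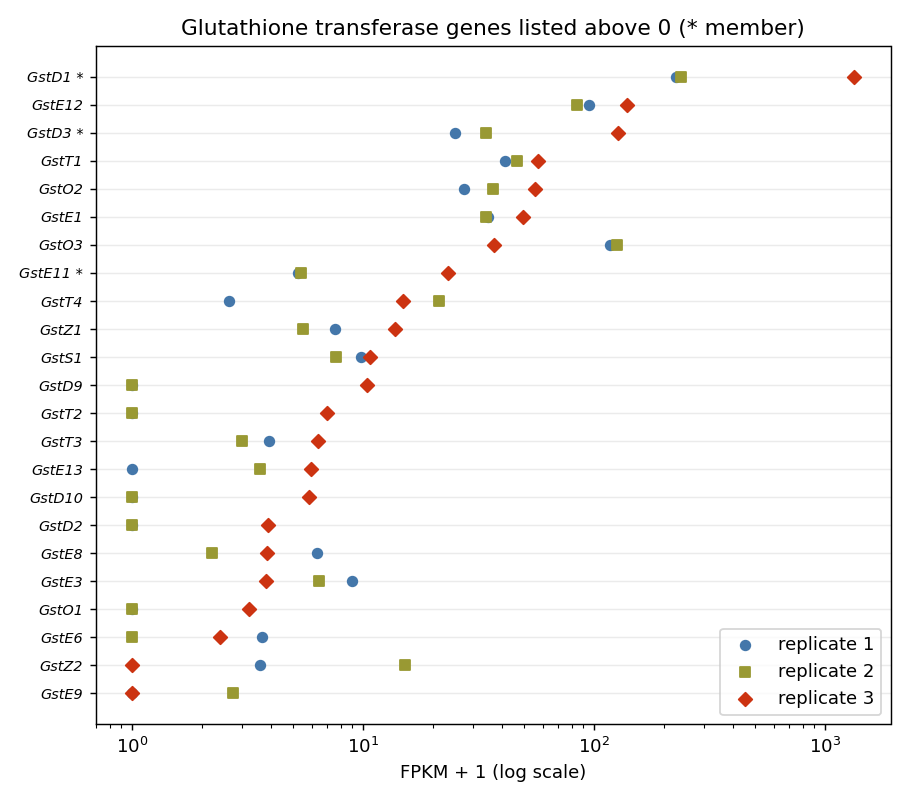
FPKM + 1 (x axis, log scale) in replicates 1, 2 and 3 of the glutathione transferase genes listed above 0 in any library, with members starred. GstD1 stands at 1339 FPKM in replicate 3, and GstO3 is lower in replicate 3 than in the other libraries.

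Storage and lipid transport were represented by a pair of members. Lsp1alpha (FBgn0002562, X 12490291 to 12492982), a subunit of the larval serum protein hexamer, had 270, 298 and 979 FPKM. It had the most fragments of all members, 354, 569 and 2431, and its ratio of 3.29 carried the narrowest interval in the plot of ratios (3.00 to 3.61). The other subunits were also highest in replicate 3 but below the limits: Lsp1beta had 416, 593 and 820 FPKM and Lsp1gamma had 557, 798 and 1331. Of the 15 fat body and larval serum genes listed, 8 were highest and 3 lowest in replicate 3, 1 was a member and none was at 0 in every library. Their summed level was 2994, 4247 and 4472 FPKM. Fbp1, whose product is the receptor for larval serum proteins, was lowest in replicate 3 at 272 FPKM, against 1037 and 1468. It had the highest level of the list in replicates 1 and 2, so its fall offsets part of the rise of other genes in the sum. Fbp1 is also in the list of other ecdysone-inducible genes, where 7 of the 9 genes found were lowest in replicate 3. The part of fat body carried over in dissection was not tested.

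fabp (FBgn0037913, 3R 11559896 to 11567054), which encodes a fatty acid binding protein, had 9.56, 7.17 and 53.3 FPKM from 11, 12 and 116 fragments, a ratio of 5.57 (3.00 to 11.5). In the annotation 72.1% of its exon bases lie in exons of another gene, and the gene sea, whose span contains fabp on the same strand, was listed at 0 in every library. Its level is therefore uncertain. More than 10% of exon bases were shared in 4 members (10.3%, against 11.1% of genes with at least 15 FPKM in replicate 3). Besides fabp, these were Coq3 at 23.8%, CG32448 at 16.1% and tsu at 10.7%, and their levels carry the same limit. Desat1, a fatty acid desaturase gene of the fat body list, had 35.4, 30.9 and 98.2 FPKM and stayed below the ratio of 3 at 2.73.

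Among members of gene expression and translation, eEF1delta (FBgn0032198, 2L 10232507 to 10234450) was the most abundant. It encodes a nucleotide exchange subunit of translation elongation factor 1 and had 103, 101 and 340 FPKM, with a ratio of 3.28 (2.41 to 4.55) from 48, 68 and 298 fragments. The other subunits of the factor did not share this pattern. eEF1alpha1 had 8646, 8848 and 6374 FPKM, eEF1gamma 1780, 1964 and 1526, and eEF1beta 969, 1074 and 1171. Cytosolic ribosomal proteins held no member among 91 genes, and 20 were highest and 40 lowest in replicate 3. Of the 91, 81 had at least 15 FPKM in replicate 3, where 1.8% of genes met the limits. The elongation factor list was chosen after the values were seen.

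The other members with nuclear or RNA-related roles were lower. tsu, which encodes the exon junction complex protein Y14, had 11.6, 13.9 and 49.0 FPKM, a ratio of 3.52 (1.52 to 9.44), and ubl, a ubiquitin-like protein gene, had 15.2, 13.9 and 53.4. ubl rests on 3, 4 and 20 fragments, and its ratio of 3.52 has an interval of 1.05 to 18.5. Polr2J, the gene of an RNA polymerase II subunit, had 3.88, 5.33 and 26.6 FPKM (1, 2 and 13 fragments), TfIIEbeta, a general transcription factor, 1.78, 3.68 and 17.0 (1, 3 and 18), and MED4, a Mediator subunit, 2.13, 4.38 and 18.0 (1, 3 and 16). The complexes as a whole were not members, in lists chosen after the values were seen. Of 13 RNA polymerase II genes, 9 were highest and 0 lowest in replicate 3. Over all protein-coding genes 24.9% were highest there, and 56.2% of those with at least 15 FPKM in replicate 3. Polr2K (11.3, 19.5 and 47.9 FPKM from 2, 5 and 16 fragments) and Polr2F (3.70, 17.8 and 46.9 from 1, 7 and 24) came nearest to the ratio of 3 among those below it. Polr2A, with the most fragments of the list (111, 88 and 124), had 33.0, 18.0 and 19.5 FPKM. Of 25 Mediator genes, 14 were highest and 6 lowest in replicate 3.

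Members with mitochondrial roles were all of low level and rest on 7 to 18 fragments in replicate 3. The 6 are mt:ND4L, a complex I subunit gene of the mitochondrial genome, mRpS33, a mitochondrial ribosomal protein gene, Coq3, an enzyme gene of ubiquinone synthesis, Scox, a copper chaperone gene for cytochrome oxidase, Sirup, an assembly factor gene for succinate dehydrogenase, and CG11267, the gene of the small mitochondrial chaperonin, with hsp10 among its synonyms in RefSeq. Sirup was the highest with 2.75, 3.78 and 26.2 FPKM, a ratio of 6.92 (1.66 to 61.5). CG11267 had 3.37, 2.31 and 21.4 FPKM, with single fragments in replicates 1 and 2 and an interval of 0.939 to 271. Coq3 had 3.76, 3.87 and 15.9 FPKM, and Scox had 3.84, 3.96 and 15.2.

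mt:ND4L was listed at 0 in replicate 1, where 0 fragments allow up to 20.6 FPKM, and had 4.72 FPKM in replicate 2 and 25.4 in replicate 3, from 1 and 7 fragments. In the mitochondrial genome list, 11 of 13 genes were highest in replicate 3, and the summed level was 5122, 6868 and 10215 FPKM. The median of that list on the log2 ratio scale was 0.59, and the abundant members stayed below the limits, such as mt:CoI at 1095, 1291 and 2064 FPKM. mRpS33 had 4.07 FPKM in replicate 1, 17.2 in replicate 3 and 0 in replicate 2, where up to 8.40 FPKM is allowed. Of 72 mitochondrial ribosomal protein genes, 45 were highest and 10 lowest in replicate 3, with a median log2 ratio of 0.18 and a summed level of 481, 441 and 744 FPKM.

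Protein modification and folding genes gave 3 members with rule ratios, after adding 1, between 3.40 and 4.10. Torsin, an ATPase of the endoplasmic reticulum and nuclear envelope, had 8.68, 8.95 and 39.8 FPKM, which without adding 1 is 4.44 times the larger of the other libraries (2.17 to 10.3). Nmt, the N-myristoyltransferase gene, had 4.42, 5.31 and 20.4, and Naa20A, the catalytic subunit gene of an N-terminal acetyltransferase, had 3.19, 4.38 and 20.2. The secretory pathway list held no member among its 19 genes, all of at least 15 FPKM in replicate 3, where 1.8% of genes met the limits. Of the 19, 15 were highest in replicate 3, against 56.2% of genes at that level, and their median log2 ratio was 0.37.

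IM33, named for a peptide induced on infection, was listed at 0 in replicate 1 (up to 15.8 FPKM allowed) and had 3.61 FPKM in replicate 2 and 30.5 in replicate 3, from 1 and 11 fragments. Its neighbour CG16713 had 6.16, 8.46 and 6.51 FPKM. No antimicrobial peptide gene was a member, but of that list of 29 only 1, DptB, had at least 15 FPKM in replicate 3. Another 16 were listed at 0 in every library. The summed level of the list was highest in replicate 1, at 191 FPKM against 74.4 and 50.5. Its most abundant genes there, CecC and DptB, rest on 14 and 11 fragments.

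The remaining 18 members are given no role here: 17 are known by a CG number and the other is nol. They include 6 of the 8 members whose counting interval lay wholly above a ratio of 3, and 13 of the 18 encode proteins of fewer than 150 residues. CG43182 (FBgn0262811, X 353067 to 353317), whose longest annotated protein has 71 residues, had the largest ratio of the rule. It had 31.9, 21.9 and 619 FPKM from 4, 4 and 147 fragments, which is 19.4 times the larger of the other libraries (7.43 to 72.3). CG43139 (FBgn0262613, 3R 27501366 to 27502025) had 276, 263 and 1124 FPKM, a ratio of 4.08 (3.24 to 5.19). CG5402, 64 bases away on the same strand, was also highest in replicate 3, with 169, 139 and 296 FPKM, and stayed below the ratio of 3 at 1.74. CG33267 (FBgn0053267, 3L 11564483 to 11572796) had 43.1, 16.7 and 369 FPKM, a ratio of 8.56 (5.17 to 15.2).

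CG15719 (FBgn0030440, X 13003955 to 13004879) was listed at 0 in replicate 1, where up to 8.03 FPKM is allowed, and had 1.84 and 45.3 FPKM in replicates 2 and 3. Its ratio of 24.6 rests on 1 fragment against 32, so its interval runs from 4.11 to 1002. CG43085 (FBgn0262531, 3L 17645486 to 17646737) had 1.68, 3.46 and 40.8 FPKM from 1, 3 and 46 fragments, a ratio of 11.8 (3.79 to 59.3), while the gene Pep beside it had 38.7, 42.3 and 53.0 FPKM. CG9864, on 2R, had 33.1, 31.4 and 104 FPKM and a ratio of 3.15 (2.12 to 4.85). CG18581 had 12.1, 6.25 and 48.1 FPKM. It lies 53 bases from CG12310, which had 22649, 15781 and 28634 FPKM on the same strand.

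The lowest of the CG-numbered members rest on 7 to 20 fragments in replicate 3. CG32448 had 3.88, 2.66 and 24.6 FPKM, CG17721 had 6.82, 3.12 and 24.04, CG44008 had 6.36, 2.91 and 21.3, and CG8004 had 1.61, 4.43 and 17.0. CG34228 had 4.82, 3.31 and 17.8 FPKM from 1, 1 and 7 fragments, and its interval ran from 0.475 to 167. CG42376, which begins 225 bases beyond the end of G9a on the X chromosome, had 0, 4.24 and 17.9 FPKM, with up to 9.25 FPKM allowed in replicate 1.

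Some members lay together in the genome. CG34278 (FBgn0085307, 3R 17120465 to 17120808) and CG42779 (FBgn0261847, 3R 17121577 to 17122087) are 768 bases apart on the same strand, and both sit inside the span of cher, a filamin gene on the opposite strand, without sharing an exon base. CG34278 had 23.3, 15.98 and 203 FPKM (ratio 8.72, 3.25 to 33.0) and CG42779 had 82.2, 67.3 and 375 (ratio 4.56, 2.89 to 7.54). cher itself was highest in replicate 1, with 146, 90.0 and 114 FPKM. The next genes on the far side, CG45079 and CG17477, were listed at 0 in all libraries.

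On 3L, CG32073 (FBgn0052073, 11107008 to 11107582) and CG12522 (FBgn0036131, 11108235 to 11108732) are 652 bases apart, and nol (FBgn0014368, 11130835 to 11131402) follows 22102 bases later with 6 genes between. CG32073 had 125, 62.2 and 379 FPKM (ratio 3.03, 2.12 to 4.44), nol had 42.3, 21.8 and 130 (3.08, 1.66 to 6.25), and CG12522 had 8.03, 0 and 27.6 from 2, 0 and 13 fragments. These 3 genes were listed lowest in replicate 2. For CG12522 the 0 there allows up to 8.28 FPKM, more than its level in replicate 1, and nol had 12 and 9 fragments in replicates 1 and 2. The neighbour CG32071, the most abundant gene there, had the same order with 976, 525 and 2265 FPKM and a ratio of 2.32 in the rule. Of the genes in between, Sod1 had 206, 223 and 270 FPKM, emei 13.8, 10.2 and 12.9, and mRpL2 15.4, 1.32 and 10.2 (8, 1 and 10 fragments). None of these had that order, but emei and mRpL2 were also lowest in replicate 2.

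**Figure D4:**
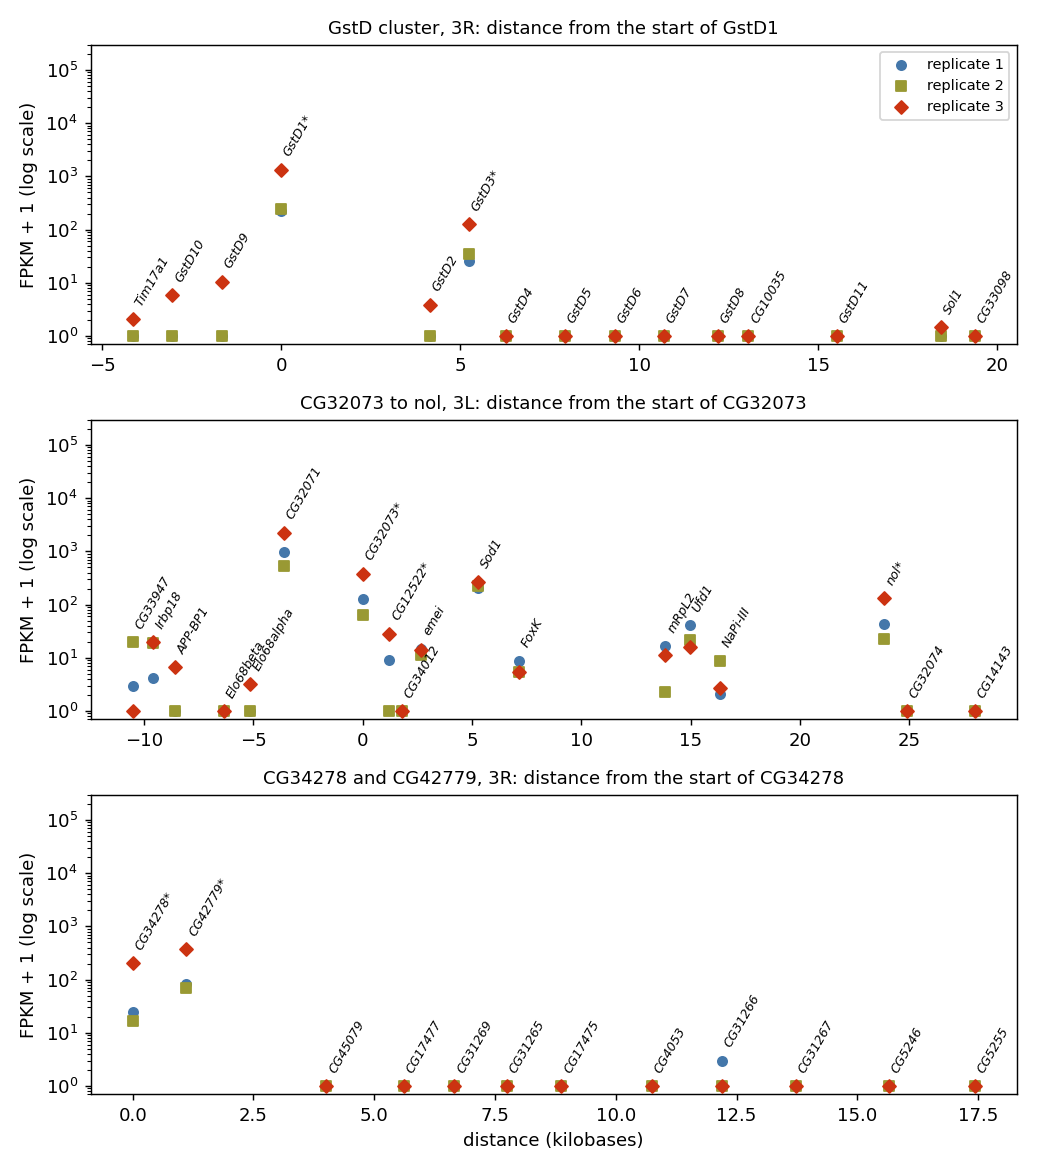
FPKM + 1 (y axis, log scale) in replicates 1, 2 and 3 of protein-coding genes around GstD1, CG32073 and CG34278, placed by the distance of their lowest coordinate from that gene's lowest coordinate in kilobases (x axis), with members starred. Starred genes are highest in replicate 3, with neighbours that range from genes listed at 0 to CG32071 at 2265 FPKM; cher, whose start lies outside the window, is not drawn.

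Elsewhere members were scattered. The 4 genes of the pairs CG32073 with CG12522 and CG34278 with CG42779 were the members whose nearest protein-coding gene on one side was another member. By chromosome, 12 members lay on 3L (30.8%, against 20.4% of genes with at least 15 FPKM in replicate 3), 8 on 3R (20.5% against 23.1%), 7 on 2L, 6 on X, 5 on 2R and 1 in the mitochondrial genome. None lay on chromosome 4. Inside the span of another protein-coding gene lay 8 members, and 7 of these share no exon base with another gene. Their 7 host genes were not members and had rule ratios from 0.309 to 2.65. Of the non-member genes overlapping a member or next to it, 23 had at least 15 FPKM in replicate 3, and 16 of these were highest there (69.6%, against 56.2% of all genes at that level).

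Members were short. Their median exon length was 742 bases, against 1711 for the 2284 genes with at least 15 FPKM in replicate 3, and their proteins had a median of 149 residues against 342. Proteins under 150 residues made up 51.3% of the members and 15.4% of the background genes. Single-exon genes made up 25.6% of the members and 8.93% of the background. The rule took 5.41% of the 518 background genes with under 1000 exon bases and 0.623% of the 1766 longer ones. Fragments moved with this: members had a median of 24 fragments in replicate 3 and background genes 75. Among genes with at least 20 fragments, proteins under 150 residues made up 37.5% of 24 members and 12.9% of 2121 background genes. Among those with at least 100 fragments, they made up 50.0% of 10 and 13.0% of 926. The part of fragment number in the length of the members was not tested.

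The fragments behind the members differed widely. With at least 100 fragments in replicate 3 there were 10 members (GstD1, CG43139, Lsp1alpha, CG43182, CG32073, CG42779, CG33267, eEF1delta, CG9864 and fabp), and the interval of each lay above a ratio of 1. In the range from 20 to 99 fragments there were 14 members, and the interval lay above 1 for all 14. Under 20 fragments there were 15, and the interval lay above 1 for 7 of them. In 20 of the 39 members the larger of replicates 1 and 2 rested on at most 3 fragments. Over all members the interval lay above 1 in 31, above 2 in 15 and above 3 in 8. The rule took 9.20% of background genes with under 20 fragments, and 1.13% of those with 20 or more. The intervals describe counting error in genes chosen for a high replicate 3, and they are no test of a difference between libraries.

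**Figure D5:**
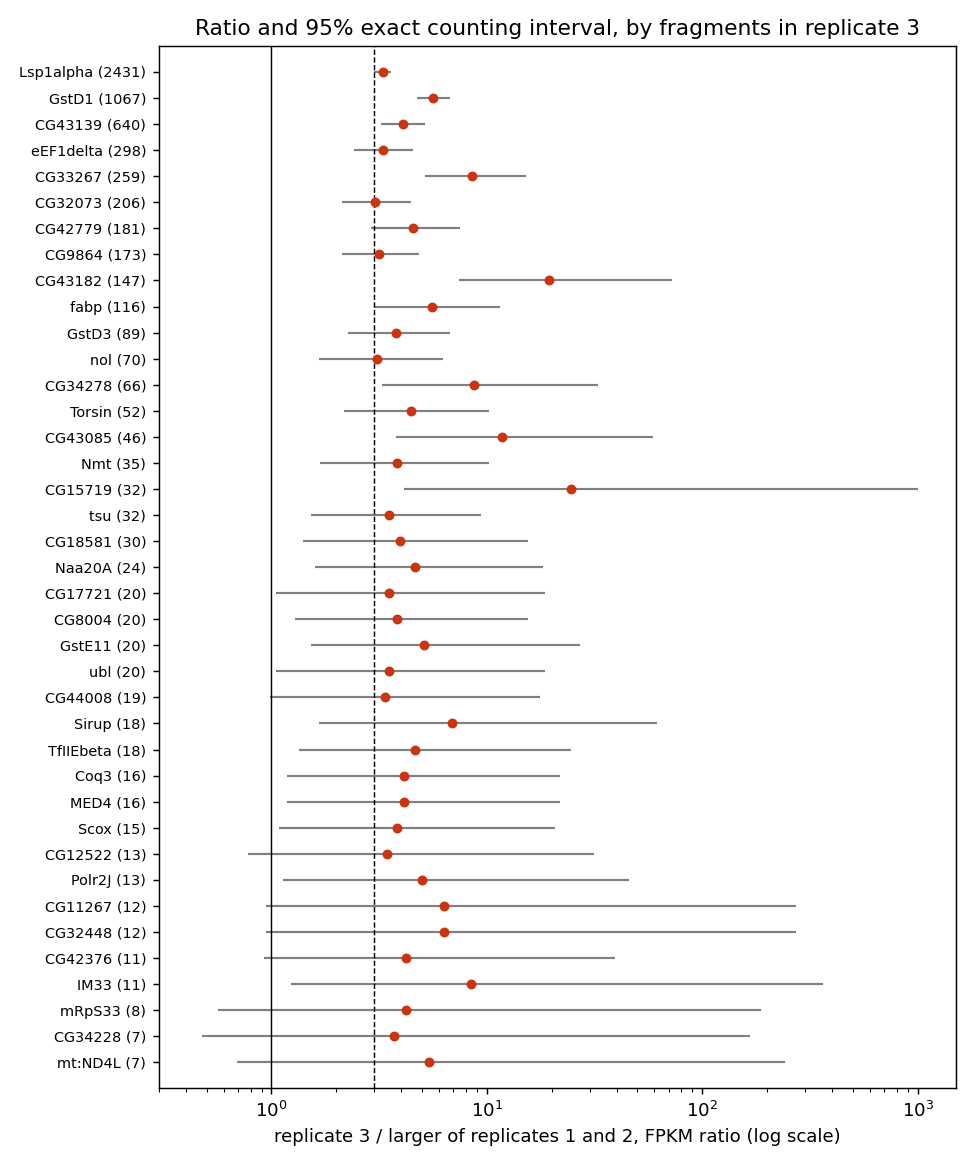
FPKM in replicate 3 divided by the larger of replicates 1 and 2 (x axis, log scale; points) with the 95% exact interval from recovered fragments (lines) for the 39 members, ordered by the fragments in replicate 3 given in brackets. The interval of mt:ND4L, with 7 fragments, runs from 0.692 to 243, and that of Lsp1alpha, with 2431, from 3.00 to 3.61. Width does not fall steadily along the order. CG15719 has 32 fragments but 1 in the larger of the other libraries, and its interval runs from 4.11 to 1002. The solid line marks a ratio of 1 and the dashed line a ratio of 3.

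Most of the 35 gene lists held no member, and some could hold none. The hemocyte, trachea and epidermis, midgut and nervous system lists, among others, had no gene of at least 15 FPKM in replicate 3. Members fell in 4 lists: glutathione transferases (3 of 35 genes), fat body and larval serum (1 of 15), the mitochondrial genome (1 of 13) and mitochondrial ribosomal proteins (1 of 72). In these lists 8, 9, 11 and 14 genes had at least 15 FPKM in replicate 3. The rule took 0.282% of all protein-coding genes and, with ng1 and ng2, 1.8% of those at that level. Lists of hemocyte, muscle, trachea and epidermis, midgut and nervous system genes had low sums in all libraries. The fat body and larval serum list did not, at 2994, 4247 and 4472 FPKM, and tissue carried over in dissection was not tested. The summed levels were 22.4, 49.6 and 31.7 FPKM for 12 hemocyte genes, 73.3, 63.7 and 94.96 for 16 muscle genes, and 26.5, 21.4 and 16.3 for 10 genes of trachea and epidermis. They were 5.78, 4.08 and 1.22 FPKM for 17 midgut genes, of which 11 were listed at 0 in every library, and 3.35, 3.41 and 4.42 for 10 genes of the nervous system, of which 4 were (ChAT, Rdl, VGlut and nSyb). The 9 genes of the Sgs glue list, among them the most abundant protein-coding genes, held no member. Of the 9, 8 had at least 15 FPKM in replicate 3, and 3 were highest there. Of 82 cytochrome P450 genes and 35 UDP-glycosyltransferase genes, 4 and 2 had at least 15 FPKM in replicate 3 and so could be members, and none was, where 1.8% of genes at that level met the limits.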

How the data were processed

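The deposited table holds FPKM values, made by the authors, for 17278 FlyBase genes in 3 libraries. The submitters' processing notes name HISAT2 among the tools, here without a version. The counting program, build and annotation were not given in the sources used here. Counting was unstranded, going by the table's name, so a gene and an antisense or overlapping partner cannot be told apart. The Ensembl annotation of BDGP6.54, release 115, held 17142 of the identifiers and lacked 136. It gave symbols, coordinates and exon lengths. FPKM times exon length fell within 0.01 of whole multiples of 1 step per library for 98.6% to 98.7% of values above 0, so fragments were recovered. No count model was fitted.

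With 1 group and members chosen from these libraries, no test was run. Ratios of FPKM carry 95% exact conditional binomial intervals from fragments, and a count of 0 was taken to allow 3 fragments. Both reflect counting error alone. Members and lists were chosen with earlier results of these data known. Named genes were the 30 highest members, the 15 with the largest ratio, members in lists or beside members, and 3 on each side of each limit. The remaining members and other genes were named after their values were seen. Recovery of fragments and the rule were tested on simulated data with counting error only. Raised levels were put only into genes above the levels of most members in replicates 1 and 2. The rule was thus not tried on raised genes of lower level. Tool versions were scipy 1.17.1, pandas 2.3.3, numpy 2.4.6, matplotlib 3.10.9 and Python 3.11.15.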

Additional observations from a re-analysis of the deposited data

How the results depend on the processing

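No paired analysis was possible because there is 1 group of 3 libraries. The number of genes taken, 39, moved to 20 with a floor of 30 FPKM, 176 with no floor, 155 with a ratio of at least 2, 11 with a ratio of at least 5, 20 with a pseudocount of 5 and 24 with at least 20 fragments in replicate 3. It was 106 without replicate 1 and 106 without replicate 2, and the rule cannot be applied without replicate 3. It was 55 with a floor of 10 and 49 with a pseudocount of 0.1. The median log2 ratio of 1.90 moved to 1.31 with a ratio of at least 2 and to 2.77 with a ratio of at least 5, and was 1.996 and 1.98 without replicates 1 and 2. These follow from the limits themselves. Rescaling gave 38 genes with equal protein-coding sums and 33 by median ratios. Scaling by fragments outside genes with rRNA in their symbol gave 44. Under all 3 scalings, 32 of the 39 were kept. Lsp1alpha, CG32073, eEF1delta, nol, CG9864, CG44008 and Scox were lost under at least 1. Equal sums moved replicate 3 by 0.10 against replicate 1 and by -0.16 against replicate 2 on the log2 scale. Scaling to all recovered fragments, an alternative chosen after seeing the data, gave 182 genes. Depth limits the members under 20 fragments.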

Other observations

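Outside protein-coding genes, 7 annotated genes met the same limits. lncRNA:CR44947, on 3R, had 48.6, 34.6 and 242 FPKM in replicates 1, 2 and 3 from 27, 28 and 254 fragments. lncRNA:CR45517, on X, had 2.58, 3.55 and 16.4 FPKM from 1, 2 and 12 fragments. The others, 2SrRNA-Psi:CR45858, mir-283, mir-304, snoRNA:Or-CD10 and mir-9382, were listed at 0 in replicates 1 and 2 and rest on 1 to 4 fragments in replicate 3.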
